A study of Mus musculus with 13 samples.

Results

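Gene expression in the neocortex of newborn mice was compared between a library labelled Fezf2 knockout and a library labelled wild type. The comparison covered the 11218 of 35972 gene identifiers in the count table that reached at least 5 CPM, the count scaled to the size of the library, in either library. These 2 of the 13 samples of the series were polyA RNA libraries of C57BL6/J neocortex, taken whole at postnatal day 0, with 1 library in each group. For the knockout, the labels give deletion of a floxed Fezf2 allele in progenitors through Emx1-cre. The control carries the title Emx-cre WT and the genotype Fezf2 wild type, and the sources used here do not say whether it also carried a floxed allele or Cre. They also do not say how many animals went into each library. Sorted cells of CD-1 mice, electroporated in utero at E16.5 and collected at postnatal day 3, serve below as values set beside the neocortex. They are 5 libraries titled Fezf2 + GFP and 3 titled GFP.

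Fezf2 encodes a forebrain transcription factor with zinc fingers. In the neocortex it is known for its role in the deep layers, where corticospinal and other subcerebral neurons of layer 5 send axons to the brainstem and spinal cord and corticothalamic neurons of layer 6 send axons to the thalamus. Callosal neurons, most of them in the upper layers, connect the hemispheres instead. The Emx1-cre driver acts in progenitors of the dorsal telencephalon, which give rise to cortical glutamatergic neurons and much of the glia, whereas cortical interneurons arise from the ganglionic eminences and microglia and vessels from other lineages.

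With 1 library a group there was no replicate check, and no test between the libraries was made. Each log2 ratio below is the labelled knockout over wild type, from CPM after TMM scaling with a prior count of 2. The 95% interval in parentheses is an exact binomial (Clopper-Pearson) interval. It covers counting error alone, and several reads can stem from the same molecule. The knockout library held 17856211 counts and the wild-type library 11818437. Neither held a count on a mitochondrially encoded gene. In RNA of a whole tissue, fewer cells of a type and less RNA per cell cannot be told apart. Among the genes just inside the level limit, Ada stood at 5.04 and 3.98 CPM in the labelled knockout and wild type, and Atp10d at 5.04 and 4.57 CPM. Just outside it, Sec14l2 stood at 4.98 and 4.99 CPM and Tmem138 at 4.87 and 4.99 CPM.

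Fezf2 itself was not lower in the labelled knockout, and its interval spanned 0. The labelled knockout held 955 counts of it (53.5 CPM) and the wild-type library 607 (51.4 CPM), a log2 ratio of 0.06 (−0.09 to 0.21). On the deposited RPKM scale, which divides by gene length, the levels were 23.1 and 22.2. A count over the whole gene does not show a deletion of part of it, and the floxed part is not named in the labels. The value therefore checked nothing about the genotype, and every direction below rests on the label. The markers of neocortical glutamatergic neurons were abundant in both libraries, with Neurod2 at 429 and 529 CPM, Neurod6 at 278 and 501 CPM and Tbr1 at 286 and 317 CPM in the labelled knockout and wild type. The labelled tissue thus carried its defining markers in both.

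The median log2 ratio over all 11218 genes was 0.01. At least 2-fold lower in the labelled knockout were 148 genes, 1.32% of those compared, and 113 genes (1.01%) were at least 2-fold higher. At 1.5-fold the counts were 755 lower (6.73%) and 534 higher (4.76%). Since the intervals cover counting alone, they excluded 0 for a large part of the genes, below 0 for 30.8% and above 0 for 30.9%. A gene that is scarce in one library can reach the level limit through the other alone, and its ratio is then far from 0 by that choice, so the counts of list members below are descriptions.

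**Figure D1:**
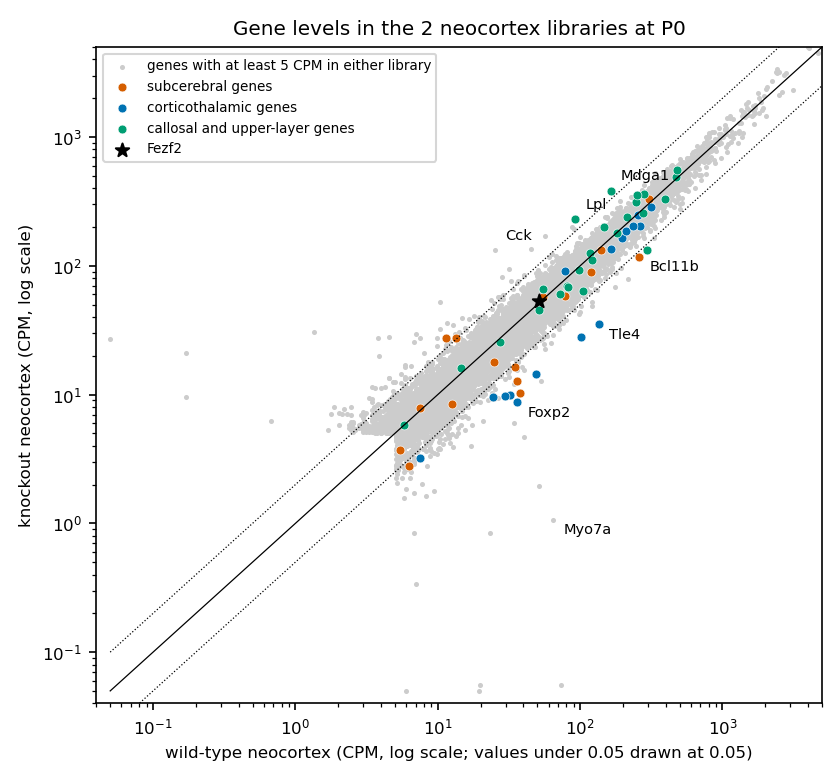
Level of each gene in the wild-type library (x axis, CPM, log scale) and in the library labelled knockout (y axis, CPM, log scale); grey points are the 11218 genes, coloured points the projection neuron lists, the star Fezf2, the solid line equality and the dotted lines 2-fold. Tle4, Foxp2 and Bcl11b lie under the lower dotted line, Mdga1, Lpl and Cck above the upper one, and Fezf2 on the line of equality.

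Corticothalamic genes split into a set that was far lower in the labelled knockout and a set that was close to wild type. Of the 17 genes on the list, 16 reached the level limit. At least 2-fold lower were 8 of these, against 1.32% of all genes compared, 0 were 2-fold higher, and 15 lay below 0, against 49.2% of all. Of the 8, Mc4r reached the limit in wild type alone. The 8 lay at log2 ratios of −1.19 or lower and the other 8 at −0.37 or higher, with no member between. The list median, −0.78 against 0.01 over all genes, falls in that gap. It was −0.37 when the level limit was moved to 1 or 20 CPM or dropped. The list's lower level was already known from earlier work on these data, so the count describes this pair of libraries and gives no independent support.

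Foxp2, a forkhead transcription factor gene of layer 6, had 155 counts (8.68 CPM) in the labelled knockout and 429 (36.3 CPM) in wild type, a log2 ratio of −2.05 (−2.34 to −1.80). Tle4, a Groucho-family corepressor gene used as a marker of corticothalamic neurons, had 630 and 1600 counts, or 35.3 and 135 CPM, a log2 ratio of −1.94 (−2.08 to −1.81). Hs3st4, which encodes a heparan sulfate sulfotransferase, stood at 28.1 and 102 CPM, a log2 ratio of −1.85 (−2.01 to −1.71). These were the lowest ratios of the list, and each left the labelled knockout with less than the wild-type level divided by 3. Syt6, a synaptotagmin gene, stood at 14.5 and 48.8 CPM (−1.74, interval −1.97 to −1.54). Zfpm2, a GATA cofactor gene also called Fog2, stood at 9.86 and 32.3 CPM (−1.70, interval −1.98 to −1.45). Ppp1r1b, the gene of the phosphatase regulator DARPP-32, stood at 9.80 and 29.9 CPM (−1.59, interval −1.88 to −1.34). The remaining 2 of the lower set were Crym, a thyroid hormone-binding protein gene, at 9.58 and 24.5 CPM (−1.35), and the melanocortin receptor gene Mc4r at 3.19 and 7.45 CPM (−1.19, interval −1.73 to −0.73).

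The other 8 corticothalamic genes include the factors that are expressed early and widely in deep-layer neurons. Tbr1, a T-box factor gene of layer 6 and subplate, stood at 286 and 317 CPM in the labelled knockout and wild type, a log2 ratio of −0.15 (−0.21 to −0.09). Sox5, which encodes a SoxD factor of deep-layer neurons, stood at 164 and 196 CPM (−0.26). Both were within 1.5-fold of wild type. Lmo3, a LIM-only factor gene, stood at 202 and 261 CPM (−0.37), and Rprm, a gene with the highest wild-type RPKM on the list (112 against 91.5 in the labelled knockout), had a log2 ratio of −0.29. Ratios of −0.21, −0.18 and −0.03 were those of Sla, Grik3 and Wnt7b. Ntsr1, the neurotensin receptor gene whose Cre line is used to mark layer 6 corticothalamic cells, was the member with a ratio above 0, at 91.6 and 78.7 CPM (0.22, interval 0.10 to 0.34). Dkkl1 lay under the level limit, at 3.19 and 0.76 CPM, in the opposite direction from the list.

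Subcerebral genes showed the same kind of split, with members at both ends. Of 19 listed genes, 17 reached the limit, with 6 at least 2-fold lower (35.3%, against 1.32% of all genes compared) and 2 at least 2-fold higher (11.8%, against 1.01%), and the median log2 ratio was −0.46. Of the 6, Pcp4 reached the limit in wild type alone. Tcerg1l, a transcription elongation regulator-like gene used as a corticospinal marker, had 184 counts (10.3 CPM) in the labelled knockout and 445 (37.7 CPM) in wild type, a log2 ratio of −1.86 (−2.13 to −1.62). Nfe2l3, a gene of the CNC family of basic leucine zipper factors, stood at 12.7 and 35.8 CPM, a log2 ratio of −1.48 (−1.73 to −1.26). Bcl11b, the gene of the zinc-finger factor CTIP2 of corticospinal neurons, had 2100 and 3068 counts, or 118 and 260 CPM, a log2 ratio of −1.14 (−1.22 to −1.06). Bcl11b was the most abundant per length of the 6 lower members in wild type, at 31.9 RPKM against 14.4 in the labelled knockout. Crym, on both lists, is the third lowest. Pcp4, a calmodulin-binding protein gene, was near the level limit at 2.80 and 6.26 CPM (−1.12, interval −1.71 to −0.62). Etv1, an ETS factor gene of layer 5, stood at 16.4 and 34.9 CPM (−1.08, interval −1.31 to −0.87).

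Most of the other subcerebral genes lay within 1.5-fold of wild type. Ntng1, Diaph3, Npr3, Crim1 and Ldb2 had log2 ratios of −0.57, −0.53, −0.46, −0.43 and −0.41, with Ldb2, a LIM-domain-binding cofactor gene, at 89.9 and 120 CPM. Trib2, Cdh22, Igfbp4 and Cdh13 lay between −0.10 and 0.11. On the other side, Sulf1, which encodes a heparan sulfate endosulfatase, stood at 27.4 and 11.4 CPM in the labelled knockout and wild type, a log2 ratio of 1.25 (0.99 to 1.55). S100a10, a gene of the annexin-binding S100 family, stood at 27.3 and 13.5 CPM, a log2 ratio of 1.01 (0.76 to 1.29). Opn3 lay under the limit at 1.85 and 2.71 CPM, and Pou3f1 had a count of 0 in both libraries. As 2 identifiers carry the symbol Pou3f1 in the count table, its level is not read from that 0.

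The stretches of 250 bases before the annotated start of 3 of these lower genes are given here because the genes lie on the 2 projection neuron lists and were low together. They are from RefSeq, build GRCm38.p6, 5′ to 3′ on the gene's strand, at chr19:14598184-14598433 (minus strand) for Tle4, chr7:138397731-138397980 (minus strand) for Tcerg1l and chr6:51432419-51432668 (plus strand) for Nfe2l3. Capitals mark each match to CANNTG, the E-box that basic helix-loop-helix factors bind, searched on both strands. Foxp2 is not in the table of promoters used.
Tle4: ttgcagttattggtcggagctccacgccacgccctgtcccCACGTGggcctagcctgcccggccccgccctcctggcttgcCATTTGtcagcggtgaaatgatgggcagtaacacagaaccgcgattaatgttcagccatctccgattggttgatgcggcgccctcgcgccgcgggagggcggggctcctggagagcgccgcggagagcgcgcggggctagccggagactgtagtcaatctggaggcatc
Tcerg1l: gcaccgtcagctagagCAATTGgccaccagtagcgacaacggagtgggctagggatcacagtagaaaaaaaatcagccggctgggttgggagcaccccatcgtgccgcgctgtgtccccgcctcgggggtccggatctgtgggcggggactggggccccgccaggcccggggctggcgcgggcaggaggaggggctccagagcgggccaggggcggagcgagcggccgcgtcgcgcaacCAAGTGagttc
Nfe2l3: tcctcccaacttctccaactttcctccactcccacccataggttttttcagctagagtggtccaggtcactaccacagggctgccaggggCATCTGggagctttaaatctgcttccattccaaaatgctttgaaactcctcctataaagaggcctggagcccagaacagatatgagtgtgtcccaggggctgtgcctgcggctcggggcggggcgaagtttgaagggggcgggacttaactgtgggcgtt
CANNTG occurred in 66.0% of all 27025 promoter windows of this length, in 55.1% of the 8784 of genes that reached the level limit, in 65.4% of the 107 available for genes at least 2-fold lower and in 62.8% of the 78 for genes at least 2-fold higher. A match is a string in the window and says nothing of whether a factor binds there.

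**Figure D2:**
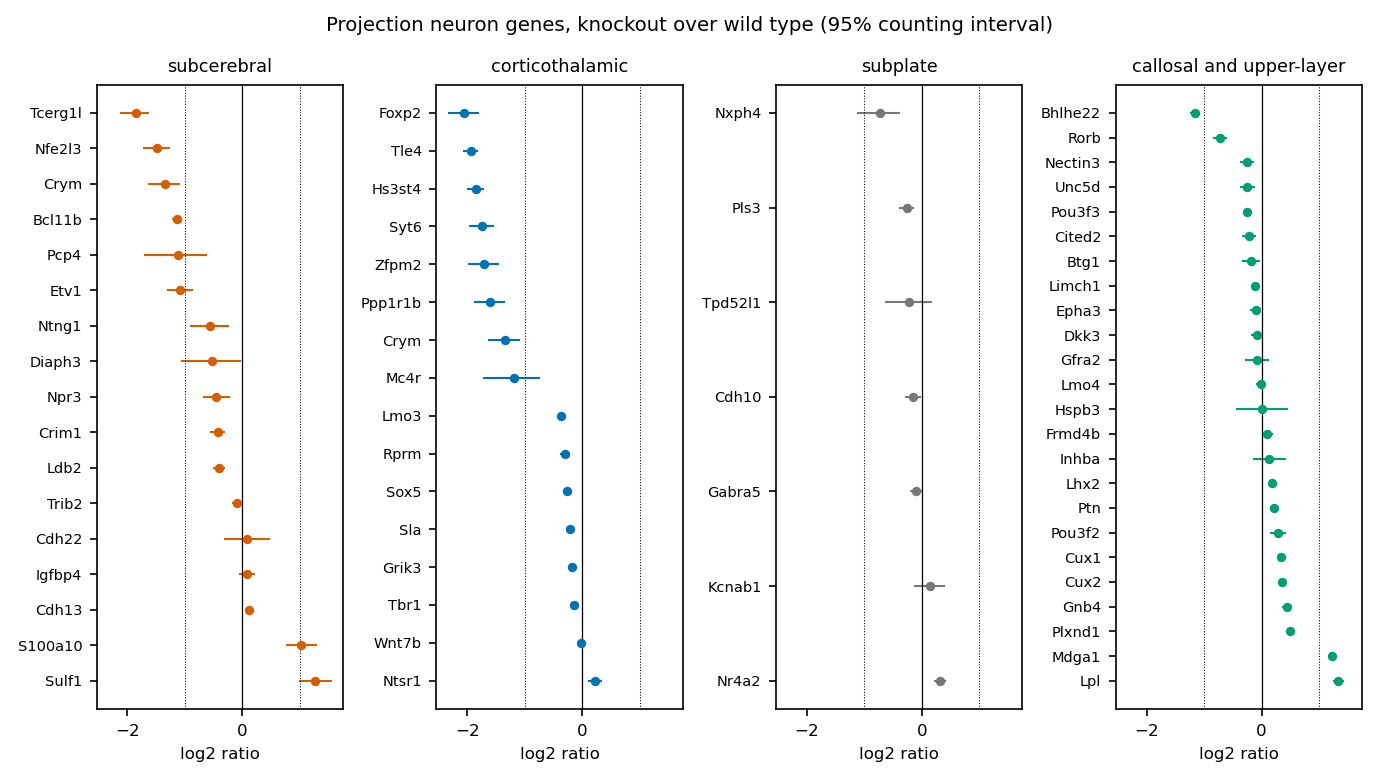
Log2 ratio of the library labelled knockout over wild type (x axis) for the reported members of 4 projection neuron lists with at least 5 CPM in either library (y axis), with bars for the 95% counting interval, a solid line at 0 and dotted lines at 2-fold. The corticothalamic panel shows the gap between Mc4r at −1.19 and Lmo3 at −0.37, and the callosal panel shows Bhlhe22 at one end and Mdga1 and Lpl at the other.

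Callosal and upper-layer genes were centred on 0, with 3 members far from it. All 25 listed genes reached the limit, the median log2 ratio was 0.00, and 12 lay below 0 and 13 above. Bhlhe22, a basic helix-loop-helix gene of the Olig family expressed in postmitotic cortical neurons, was the lowest: the labelled knockout held 2374 counts (133 CPM) and wild type 3511 (297 CPM), a log2 ratio of −1.16 (−1.24 to −1.08). Mdga1, a glycosylphosphatidylinositol-anchored adhesion protein gene of upper-layer neurons, stood at 382 and 164 CPM, a log2 ratio of 1.22 (1.15 to 1.30). Lpl, the lipoprotein lipase gene, stood at 231 and 91.8 CPM, a log2 ratio of 1.33 (1.23 to 1.43). Mdga1 and Lpl were the 2 of 25 members (8%) at least 2-fold higher, against 1.01% of all genes compared.

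The upper-layer factor genes Cux1 and Cux2 lay closer to wild type. Cux1 and Cux2, homeobox genes of layers 2 to 4, stood at 315 and 249 CPM (0.34) and at 358 and 279 CPM (0.36). Rorb, a nuclear receptor gene of layer 4, went the other way, at 63.4 and 105 CPM (−0.72, interval −0.84 to −0.61). The other members above 0.2 were Plxnd1 (0.49), Gnb4 (0.44), Pou3f2 (0.29) and Ptn (0.21), and those below −0.2 were Nectin3 (−0.26), Unc5d (−0.25), Pou3f3 (−0.25) and Cited2 (−0.22). Ratios from −0.18 to 0.19 were those of Btg1, Limch1, Epha3, Dkk3, Gfra2, Lmo4, Hspb3, Frmd4b, Inhba and Lhx2.

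Subplate genes, of the early-born neurons under layer 6, were little different. Of 12 listed, 7 reached the limit, with a median of −0.16. Nxph4, a neurexophilin gene, was the lowest at 6.55 and 11 CPM (−0.74, interval −1.12 to −0.38), and Nr4a2, the gene of the nuclear receptor NURR1, the highest at 126 and 102 CPM (0.31, interval 0.21 to 0.41). Ctgf and Cplx3, which mark subplate and layer 6b at later ages, lay under the limit at 4.65 and 4.32 CPM and at 0.73 and 0.51 CPM.

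Within the genes of glutamatergic identity, the neuronal basic helix-loop-helix genes were lower and Emx1 was higher. Of 12 listed, 11 reached the limit, with a median of −0.25 and 8 below 0. Neurod6, a factor gene of postmitotic pyramidal neurons, stood at 278 and 501 CPM in the labelled knockout and wild type, a log2 ratio of −0.85 (−0.91 to −0.80). Neurod1, which acts earlier, stood at 12.4 and 23.0 CPM (−0.89, interval −1.16 to −0.63). Neurod2, a close relative of Neurod6, stood at 429 and 529 CPM (−0.30, interval −0.35 to −0.25). With Bhlhe22, which is also on this list, all 4 of its basic helix-loop-helix genes that reached the limit lay below 0, against 49.2% of all genes compared. At least 1.5-fold lower were 3 of them, against 6.73% of all. The grouping was made after the values were seen, and it does not count members of the family on other lists. Neurog2 lay under the limit, at 2.74 and 2.71 CPM. The vesicular glutamate transporter genes lay on either side, Slc17a7 at 121 and 97.3 CPM (0.31) and Slc17a6 at 67.4 and 76.9 CPM (−0.19).

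Emx1, the homeobox gene whose locus drives the Cre, stood at 39.98 and 19.4 CPM in the labelled knockout and wild type, a log2 ratio of 1.04 (0.83 to 1.27), while its relative Emx2 stood at 10.1 and 14.3 CPM (−0.50, interval −0.82 to −0.19). The labels do not say how the driver was made or which animals carried it, and the part of the Emx1 count that comes from a driver allele was not tested. Of the 10 protein-coding genes on each side of Emx1 in the reference gene order, 15 reached the limit, and their log2 ratios ran from −0.50 (Zfp638) to 0.66 (Spr, the nearest on one side) with a median of 0.16. Next to Fezf2, 10 of the 20 did, from −0.57 (Atxn7) to 0.11 (Kctd6) with a median of −0.15. No neighbour of either gene was 2-fold different.

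Genes of intermediate progenitors, the dividing cells that give rise to cortical neurons, were too few for a summary: 5 of 8 reached the limit, with a median of −0.12. Eomes, the gene of the T-box factor TBR2 that defines these cells, was low in both libraries at 3.75 and 9.99 CPM, a log2 ratio of −1.38 (−1.87 to −0.97). Insm1, another of their factors, stood at 57.6 and 62.8 CPM (−0.12). Genes of radial glia, the neural stem cells, had a median of −0.23 over 16 of 18 members. Of these 16, 10 lay below 0, against 49.2% of all genes compared. Hes1 and Hes5, Notch effector genes, had the lowest ratios (−0.63 and −0.47, from under 8 CPM in each library). Sox9, Fabp7, Slc1a3, Sox2 and Pax6 lay between −0.45 and −0.37, while Notch1 stood at 111 and 73.4 CPM (0.60) and Ddah1 at 0.35. Cell cycle genes had a median of 0.00 over 19 of 25, with Mki67 at 41.3 and 42.2 CPM and Top2a at 29.8 and 29.9 CPM. Their extremes were Mcm6 at 37.3 and 20.4 CPM (0.87) and Ccne2 at 9.52 and 14.8 CPM (−0.63).

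Interneuron genes, of cells outside the Emx1-cre lineage, mostly lay below 0. Of 20 listed, 19 reached the limit, with a median of −0.28 and 15 below 0, against 49.2% of all genes compared. Gad1 and Gad2, which encode the enzymes that make GABA, stood at 61.9 and 86.4 CPM (−0.48, interval −0.61 to −0.36) and at 91.4 and 136 CPM (−0.57, interval −0.67 to −0.47). Erbb4, the neuregulin receptor gene, was the lowest, at 79.3 and 215 CPM, a log2 ratio of −1.44 (−1.54 to −1.35), followed by the nuclear receptor gene Nr2f2 at 51.9 and 121 CPM (−1.22, interval −1.34 to −1.10). Lhx6, a LIM-homeobox gene of medial eminence interneurons, differed little, at 167 and 177 CPM (−0.09). Npy, the neuropeptide Y gene, stood far above 0, at 228 and 91.5 CPM, a log2 ratio of 1.31 (1.22 to 1.41). The list thus held 2 members at least 2-fold lower (10.5%, against 1.32% of all genes compared) and 1 at least 2-fold higher (5.26%, against 1.01%). Sst, another peptide gene of interneurons, stood at 65.0 and 58.7 CPM (0.15).

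Genes of the neighbouring striatum, which a dissection can include, were scarce. Of 18 listed, 7 reached the limit, with a median of −0.52, and Ppp1r1b, at −1.59, is shared with the corticothalamic list. With the level limit at 1 CPM the striatal median was −0.04, at 20 CPM −0.27 and with no limit −0.18. Drd1, a dopamine receptor gene, stood at 4.14 and 10.9 CPM (−1.37, interval −1.83 to −0.97), and Meis2, a homeobox gene found in other cells too, at 143 and 247 CPM (−0.79). The summed CPM of the list was 663 in the labelled knockout and 804 in wild type. Among the defining markers Isl1 had no count in either library, and Six3 and Drd2 stood at 0.17 CPM or less and at 1.2 CPM or less in each. Their part in the Ppp1r1b value was not tested. Cajal-Retzius genes had a median of −0.24 over 7 of 9, with Reln at 740 and 722 CPM. Hippocampal genes had a median of −0.14 over 7 of 7, with Fibcd1 at 16.9 and 5.84 CPM (1.51, interval 1.15 to 1.93) as the member past 2-fold. Of 6 thalamic genes, 2 reached the limit, Rora (−0.32) and Slc17a6, and Gbx2 stood at 0.056 and 0.17 CPM.

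Vessel genes mostly lay above 0. Of 15 endothelial and pericyte genes, 13 reached the limit, with a median of 0.42. Of the 13, 12 lay above 0 and 1 below, beside 49.2% of all genes compared below 0. At least 1.5-fold higher were 5 (38.5%, against 4.76% of all genes compared). The summed CPM of the list was 319 in the labelled knockout and 242 in wild type. Cldn5, a tight junction gene of the blood-brain barrier, stood at 47.9 and 30.3 CPM (0.66, interval 0.48 to 0.84), and Pecam1, an adhesion gene of endothelium, at 19.1 and 12.1 CPM (0.65, interval 0.37 to 0.95). The pericyte potassium channel genes Kcnj8 and Abcc9 stood at 6.89 and 2.45 CPM (1.44, interval 0.90 to 2.13, at the limit in the labelled knockout alone) and at 32.3 and 18.4 CPM (0.80, interval 0.58 to 1.04). Tek, an angiopoietin receptor gene, was the member below 0, at 8.46 and 11.8 CPM. Collagen and laminin genes, which include those of the vessel basement membrane, had a median of 0.30 over 19 of 24, with 12 above 0 and 7 below. Among those above were Lama4, Lamc1, Col4a1 and Col4a2 at 0.70, 0.66, 0.55 and 0.47. Those below included Lama1, Lama5, Col18a1, Lama3 and Col5a1 at −0.01, −0.08, −0.09, −0.55 and −0.64. The lowest was Col25a1, a transmembrane collagen gene of neurons, at 5.49 and 13.8 CPM (−1.31).

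Blood and meningeal genes had higher sums in the labelled knockout too. Red blood cell genes summed to 97.2 CPM there and 60.1 CPM in wild type, with 4 of 8 at the limit, and Hba-a1, a hemoglobin gene, at 36.0 and 11.7 CPM (1.61, interval 1.35 to 1.90), while its near-identical copy Hba-a2 stood at 7.0 and 8.55 CPM, so the split between the copies is uncertain. Meningeal genes summed to 55.9 and 38.5 CPM with 3 of 11 at the limit. Igf2, at 33.7 and 19.0 CPM (0.82), was the largest part of both sums. The defining meningeal markers went both ways. Col1a2 stood at 6.22 and 4.57 CPM (0.43) and Dcn at 2.80 and 5.08 CPM (−0.83). Under the limit, Col1a1 stood at 2.02 and 1.52 CPM (0.38) and Lum at 0.39 and 1.78 CPM (−1.86, interval −3.66 to −0.89). Choroid plexus genes were nearly absent, at 3.64 and 2.03 CPM in sum, with 0 of 6 at the limit and Otx2 at a count of 0 in both. Microglial genes had 4 of 14 at the limit, with a median of −0.18, Csf1r at 0.54 and Cx3cr1 at −0.77. The part that vessel, blood or meningeal content played in the other results was not tested.

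Astrocyte and oligodendrocyte genes lay near wild type. Astrocyte genes had a median of 0.15 over 11 of 14, from Gja1 at 9.52 and 14.6 CPM (−0.61) to Aldoc at 105 and 76.6 CPM (0.45). Oligodendrocyte lineage genes had a median of 0.10 over 10 of 14, and Sox10, a factor gene of the lineage, was the member farthest from 0, at 20.4 and 10.4 CPM (0.96, interval 0.68 to 1.28). Its partner genes differed little, with Olig2 at 17.9 and 17.7 CPM and Pdgfra at 93.2 and 94.9 CPM.

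**Figure D3:**
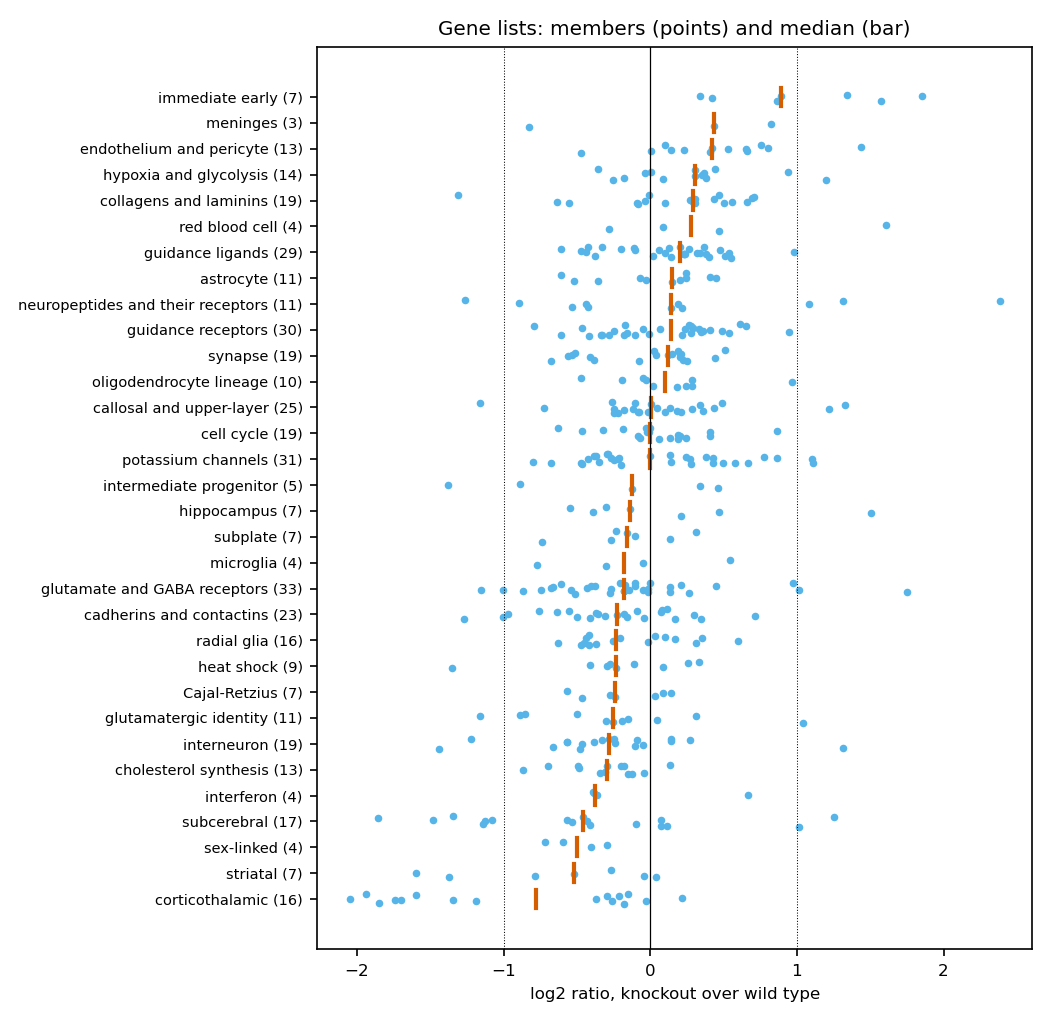
Log2 ratio of the library labelled knockout over wild type (x axis) for the members (points) and the median (bars) of each gene list with at least 3 members of at least 5 CPM in either library (y axis, number of such members in parentheses), with a solid line at 0 and dotted lines at 2-fold. The thalamic list, with 2 such members, is not drawn. The immediate early list, at a median of 0.89, and the corticothalamic list, at −0.78, stand at the 2 ends.

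Immediate early genes, which neurons and other cells induce within minutes of activity or injury, were above 0 for each of the 7 of 16 that reached the limit. Of all genes compared, 49.2% lay below 0. The median of the 7 was 0.89, with 5 at least 1.5-fold higher (71.4%, against 4.76% of all genes compared) and 3 at least 2-fold higher (42.9%, against 1.01%). Of these 3, Junb and Ier2 reached the limit in the labelled knockout alone. With the limit at 1 CPM or without one the median was 0.71. Under the limit, Egr3, Btg2, Npas4 and Arc lay below 0 at −0.27, −0.44, −0.49 and −0.16, each with an interval that spanned 0. Egr4, Egr2, Atf3, Fos and Fosb, also under it, lay above 0 at 1.98, 0.96, 0.96, 0.55 and 0.06. Of these, the intervals of Egr4 and Egr2 excluded 0. Egr1, a zinc-finger gene, had 492 counts (27.6 CPM) in the labelled knockout and 89 (7.53 CPM) in wild type, a log2 ratio of 1.85 (1.54 to 2.21). Junb, an AP-1 subunit gene, stood at 7.06 and 2.28 CPM (1.57, interval 1.02 to 2.28), and Ier2 at 12.4 and 4.82 CPM (1.34, interval 0.94 to 1.81). The nuclear receptor genes Nr4a1 and Nr4a3 stood at 21.7 and 11.6 CPM (0.89, interval 0.62 to 1.19) and at 92.6 and 50.8 CPM (0.86, interval 0.73 to 1.004). The members most tied to neuronal firing were scarce in both libraries: Fos stood at 2.30 and 1.52 CPM, Arc at 1.12 and 1.27 CPM and Npas4 at 1.34 and 1.95 CPM. Of the stress lists, heat shock genes had a median of −0.24 over 9 of 12, with Hspa8, a constitutive chaperone gene with processed copies, at 68.4 and 175 CPM (−1.35), and Hspa1a and Hspa1b, the inducible genes, under 0.7 CPM. Hypoxia and glycolysis genes had a median of 0.31 over 14 of 17, led by the glucose transporter gene Slc2a1, which endothelium also expresses, at 38.4 and 16.7 CPM (1.20).

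Cck and Scg2 were among the 15 genes with the interval farthest above 0. Cck, the cholecystokinin gene, had 2357 counts (132 CPM) in the labelled knockout and 298 (25.2 CPM) in wild type, a log2 ratio of 2.38 (2.21 to 2.57). Scg2, the secretogranin II gene of dense-core vesicles, had 3019 and 666 counts, or 169 and 56.4 CPM, a log2 ratio of 1.58 (1.46 to 1.71). Of the 25 neuropeptide and receptor genes, 11 reached the limit. Cck, Npy and the receptor gene Crhr1, at 24.1 and 11.3 CPM (1.08), were the 3 at least 2-fold higher (27.3%, against 1.01% of all genes compared). Adcyap1, the PACAP gene, lay at the other end of these 11 with 2.07 and 5.16 CPM (−1.26, interval −1.95 to −0.70), next to the receptor gene Npy1r at 8.51 and 15.9 CPM (−0.89). Under the limit, Npy2r and Nts lay lower still, at 0.73 and 2.96 CPM (−1.84) and at 1.01 and 3.89 CPM (−1.82). Oprk1 and Penk, also under it, lay above 0 at 1.03 and 1.01. Vip, another peptide gene of interneurons, lay under the limit at 0.95 and 1.44 CPM. The median of the list was 0.15, and its sign turned with the limit at 1 CPM (−0.18) or without a limit (−0.11).

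The windows of 250 bases before the start of Cck, Scg2 and Nr4a1 are printed because these peptide, secretory and immediate early genes were high together. Positions in GRCm38.p6 are chr9:121495695-121495944 (minus strand) for Cck, chr1:79440027-79440276 (minus strand) for Scg2 and chr15:101266596-101266845 (plus strand) for Nr4a1, with RefSeq as the source. Capitals mark TGACG or its reverse CGTCA, the core of the cyclic AMP response element TGACGTCA that CREB factors bind. In Scg2 the capitals run over the whole element, where the matches on both strands overlap. Egr1 is not in the table.
Cck: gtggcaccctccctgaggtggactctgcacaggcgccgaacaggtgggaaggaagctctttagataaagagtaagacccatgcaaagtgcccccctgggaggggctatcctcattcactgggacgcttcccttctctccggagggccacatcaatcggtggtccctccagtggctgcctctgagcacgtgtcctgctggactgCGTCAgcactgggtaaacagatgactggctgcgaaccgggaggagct
Scg2: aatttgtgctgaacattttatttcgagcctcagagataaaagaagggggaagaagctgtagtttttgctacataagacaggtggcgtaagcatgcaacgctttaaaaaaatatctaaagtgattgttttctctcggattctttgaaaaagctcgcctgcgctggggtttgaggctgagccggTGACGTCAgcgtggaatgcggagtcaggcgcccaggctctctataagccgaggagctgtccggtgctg
Nr4a1: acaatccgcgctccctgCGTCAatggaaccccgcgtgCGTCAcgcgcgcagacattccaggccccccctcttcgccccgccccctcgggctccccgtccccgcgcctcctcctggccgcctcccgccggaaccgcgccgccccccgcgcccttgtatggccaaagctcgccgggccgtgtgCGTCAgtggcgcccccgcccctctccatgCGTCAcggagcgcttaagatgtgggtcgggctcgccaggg
TGACG on either strand occurred in 28.2% of the windows of genes that reached the limit, in 26.9% of those at least 2-fold higher and in 17.8% of those at least 2-fold lower, and in 17.9% of all windows. The whole element was in 3 of the 78 windows of the higher genes (Ltbp1, Rpl26 and Scg2), 3.85%, and in 1 of the 107 of the lower genes (Gk5), 0.935%, against 2.97% of genes that reached the limit.

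Among receptors of fast transmission, the NMDA receptor genes Grin2a and Grin2b gave the highest ratios. Of 33 glutamate and GABA receptor genes, all reached the limit, with a median of −0.18. Below 0 lay 24 of them, against 49.2% of all genes compared. Grin2a, at the limit in the labelled knockout alone, and Grin2b stood at 7.17 and 2.03 CPM (1.75, interval 1.18 to 2.51) and at 73.5 and 36.2 CPM (1.02, interval 0.86 to 1.18), whereas Grin3a stood at −0.17. Grik2, a kainate receptor gene, stood at 65.4 and 131 CPM (−1.01, interval −1.12 to −0.90). Potassium channel genes had a median of 0.00 over 31 of 32, with Kcnh1 and Kcnk9 both at 1.11 and Kcnc2 at −0.80. Synapse genes had a median of 0.12 over 19 of 19, from Syt4 at 399.6 and 639 CPM (−0.68) to Stx1a at 206 and 145 CPM (0.51).

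Guidance receptor genes had a median of 0.14 over 30 of 30, with 2 at least 1.5-fold lower (6.67%, against 6.73% of all genes compared) and 3 higher (10%, against 4.76%). Ephb1, an ephrin-B receptor gene, was the lowest at 64.4 and 112 CPM (−0.79, interval −0.91 to −0.68), and Epha8 the highest at 55.6 and 28.8 CPM (0.95, interval 0.77 to 1.13). Guidance ligand genes had a median of 0.20 over 29 of 32, from Slit3 at 6.61 and 10.2 CPM (−0.61) to Ntn1, the netrin gene, at 14.0 and 7.02 CPM (0.98). None of the guidance genes that reached the limit was 2-fold different. Under it, the ligand genes Sema3e and Sema3d stood at 1.34 and 3.81 CPM (−1.41, interval −2.28 to −0.76) and at 1.85 and 4.32 CPM (−1.17, interval −1.90 to −0.56). Cadherin and contactin genes had a median of −0.22 over 23 of 24, with 5 at least 1.5-fold lower (21.7%, against 6.73% of all genes compared): Cdh7 at 3.64 and 8.97 CPM (−1.27), Cdh11 at 26.9 and 54.1 CPM (−1.002), and Cntnap5a, Cntnap5b and Cntn3 at −0.97, −0.76 and −0.63. Of these, Cdh7 and Cntnap5b reached the limit in wild type alone. Cholesterol synthesis genes had 12 of 13 members below 0, against 49.2% of all genes compared. The median of the 13 was −0.30, and Sc5d was the lowest at 24.2 and 44.2 CPM (−0.86). Interferon genes had 4 of 12 at the limit with a median of −0.37, and the sign of that median turned to 0.08 with the limit at 1 CPM and 0.10 without a limit. The Y-linked genes Eif2s3y, Ddx3y, Uty and Kdm5d stood at −0.71, −0.59, −0.40 and −0.30, and Xist under 1 CPM in both libraries.

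The genes whose intervals lay farthest from 0 were in part copies and predicted genes. Of the 15 at each end, 7 at each end carried a predicted, RIKEN, ribosomal or pseudogene symbol. Gm1821 had 1 count in the labelled knockout and 869 in wild type, a log2 ratio of −8.59 (−15.66 to −7.88), and Gm6166 had 1 and 235 counts, a log2 ratio of −6.71 (−13.78 to −5.98). Gm15772 had 0 and 229 counts, at least 115-fold lower against a floor of 3 counts in the library, and Gm10039 had 0 and 71, at least 35.8-fold lower. In the other direction Gm13394 had 484 counts and 0 in wild type, at least 107-fold higher, Gm10036 had 377 and 2, a log2 ratio of 6.13 (5.10 to 10.01), and Tdpx-ps1 had 171 and 2, a log2 ratio of 5.00 (3.95 to 8.88). Rpl3, a ribosomal protein gene with many copies, stood at 29.4 and 7.02 CPM (2.04). Such all-or-none counts are uncertain, since reads from near-identical copies can be given to one or another of them, and the sources used here do not say how strand was handled in the counting. Tuba1c, a tubulin gene with close paralogs, had 35 and 606 counts (−4.62, interval −5.24 to −4.22) and is uncertain for the same reason, as is Ndufs5, a respiratory complex I gene, at 6 and 83 counts.

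Among the other genes at the lower end, Myo7a, an unconventional myosin gene best known from sensory hair cells, had 19 counts (1.06 CPM) in the labelled knockout and 763 (64.6 CPM) in wild type, a log2 ratio of −5.75 (−6.66 to −5.27). The genes with lower ratios all carry predicted symbols. Nxph3, a neurexophilin gene of deep-layer and subplate neurons, stood at 4.65 and 40.4 CPM (−3.08, interval −3.47 to −2.78), below every member of the projection neuron lists. Slc7a11, the cystine-glutamate exchanger gene, stood at 5.99 and 34.2 CPM (−2.49, interval −2.83 to −2.20), and Scoc, a short coiled-coil protein gene of the Golgi, at 12.8 and 52.7 CPM (−2.03). At the upper end were Hddc3, a hydrolase gene, at 27.6 and 3.81 CPM (2.81, interval 2.41 to 3.33), and Vegfd, a vascular growth factor gene, at 27.9 and 4.57 CPM (2.57, interval 2.20 to 3.04). Kcnn1, a calcium-activated potassium channel gene, stood at 52.5 and 10.4 CPM (2.32, interval 2.06 to 2.62), Matn2, a matrix protein gene, at 20.1 and 3.89 CPM (2.33, interval 1.92 to 2.84), and Dctd, a deaminase gene of nucleotide synthesis, at 25.6 and 6.85 CPM (1.88). Of the 34 lists, Tle4 and Foxp2 were the only members among the lower 15, and Cck and Egr1 the only ones among the upper 15.

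**Figure D4:**
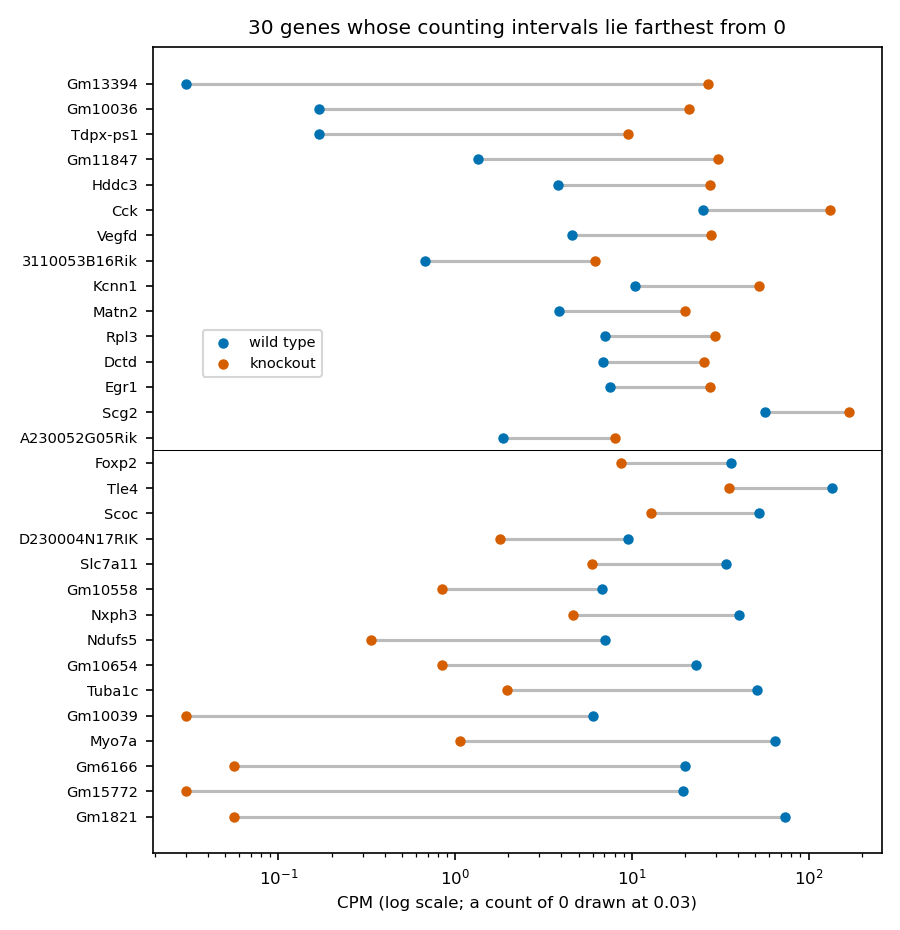
Level in the wild-type library and in the library labelled knockout (x axis, CPM, log scale, a count of 0 drawn at 0.03) of the 15 genes with the counting interval farthest above 0 and the 15 farthest below (y axis, separated by the line). Myo7a runs from 64.6 CPM in wild type to 1.06 in the labelled knockout, and the predicted Gm genes include those with a count of 0 in one library.

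Gene length went with the ratio. Across the 11218 genes, which are not independent replicates, Spearman's rho between length and log2 ratio was −0.20, and in 5 groups of rising length the medians were 0.11, 0.06, 0.01, −0.03 and −0.11, the longest group covering lengths from 6764 to 31277 bases. The libraries share their preparation by the labels but differ in depth, and the part of length in the results was not tested beyond subtracting its trend. With the trend subtracted, the medians of corticothalamic, subcerebral, callosal, vessel and immediate early genes were −0.82, −0.47, −0.03, 0.54 and 0.92, and Bcl11b stood at −1.04.

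Groups picked by their symbols after the values had been seen are given as descriptions. Zinc-finger genes with a Zfp number lay lower: of 255 that reached the limit, 182 were below 0, against 49.2% of all genes compared. At least 1.5-fold lower were 54 (21.2%, against 6.73% of all genes compared) and 8 were higher (3.14%, against 4.76%). The median of the group was −0.18. Zfp40 stood at 6.22 and 20.9 CPM (−1.73) and Zfp709, at the other end, at 14.3 and 5.50 CPM (1.36). Ribosomal protein genes, which are short, had a median of 0.15 over 74, and 0.04 with the length trend subtracted. Protocadherin genes had a median of −0.16 over 27. Of the serotonin receptor genes, 5 reached the limit, with Htr2a at 1.62 and 8.21 CPM (−2.25), Htr2c at 2.58 and 6.35 CPM (−1.26), Htr1a at −0.67, Htr6 at 0.45 and Htr3a, a gene of interneurons, at 9.24 and 5.42 CPM (0.76).

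The sorted cells given Fezf2 are another strain, age, cell population and library kind, and their samples played no part in the neocortex ratios. Their values are set beside those of the neocortex, and no test links the comparisons. In sorted cells, edgeR's quasi-likelihood test with Benjamini-Hochberg adjustment called 2 of 13754 genes (0.0145%), Fezf2 and Eif1b. Of the 148 genes at least 2-fold lower in the labelled knockout, 130 could be tested in sorted cells. Their median log2 fold change there, Fezf2 + GFP over GFP, was 0.08, with 74 above 0 and 56 below. Over the 10867 genes in both comparisons the median was 0.02, with 5701 above 0 and 5166 below. By edgeR, 0 of the 130 passed after adjustment, and 7 higher and 4 lower had an unadjusted p under 0.05. Of the 10867 genes, 484 higher and 263 lower had such a p by edgeR. DESeq2 called 6 genes over the whole table. For the 113 genes at least 2-fold higher, 80 could be tested, with a median of 0.05, 46 above 0, 34 below, 0 that passed and 4 at an unadjusted p under 0.05 (3 higher, 1 lower). Across the 10867 genes, which share their libraries, Spearman's rho between the comparisons was 0.01.

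Single genes at the ends of the neocortex comparison varied in sorted cells without passing the test. Tle4 stood at 51.6, 46.9, 47.9, 69.0 and 80.6 CPM in Fezf2 + GFP replicates 1 to 5 and at 62.4, 48.7 and 41.6 CPM in GFP replicates 1 to 3. Its groups overlapped (log2 fold change 0.21, SE 0.22, edgeR adjusted p = 0.877). Bcl11b stood at 27.1, 38.5, 39.5, 30.6 and 30.2 CPM with Fezf2 and 30.6, 18.6 and 17.99 with GFP, and of the GFP libraries only replicate 1 lay inside the Fezf2 range (log2 fold change 0.56, SE 0.25, edgeR adjusted p = 0.749). Egr1 stood in sorted cells at 163, 401, 148, 383 and 238 CPM with Fezf2 and 150.001, 161 and 141 with GFP. Those groups overlapped at Fezf2 + GFP replicate 3 (log2 fold change 0.82, SE 0.29, edgeR adjusted p = 0.729). Mdga1 stood at 172, 106, 111, 92.4 and 94.8 CPM with Fezf2 and 151, 181 and 187 with GFP, where Fezf2 + GFP replicate 1 lay inside the GFP range (log2 fold change −0.59, SE 0.19, edgeR adjusted p = 0.729). Foxp2, Nfe2l3, Lpl, Scg2 and Erbb4 had log2 fold changes of 0.08, 0.10, −0.21, 0.26 and 0.32 (edgeR adjusted p from 0.829 to 0.979). Hs3st4 was lower with Fezf2, at a mean of 6.02 CPM against 9.94 with GFP (log2 fold change −0.70, SE 0.67, edgeR adjusted p = 0.863). Cck, Npy and Emx1 stood at 0.19, −0.70 and −0.75 (edgeR adjusted p from 0.798 to 0.924). Tcerg1l and Nxph3 were too low there to be tested.

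**Figure D5:**
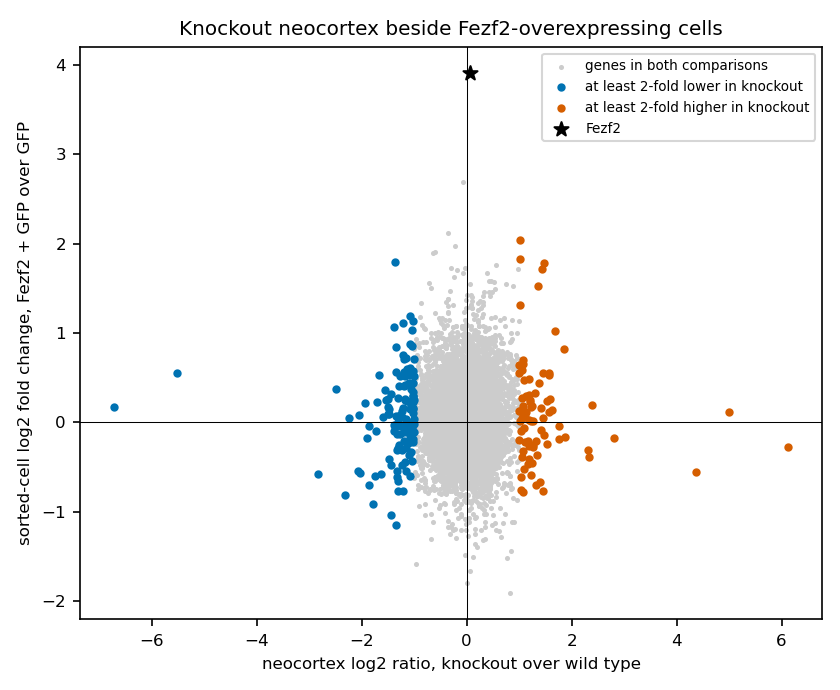
Log2 ratio in neocortex, library labelled knockout over wild type (x axis), beside the log2 fold change in sorted cells, Fezf2 + GFP over GFP (y axis), for the 10867 genes in both; blue and orange points are genes at least 2-fold lower or higher in the labelled knockout, the star is Fezf2 and the lines mark 0. Blue and orange points spread on both sides of 0 on the y axis, and Fezf2 lies at 3.91 on that axis and 0.06 on the x axis.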

How the data were processed

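Raw counts per gene for all 10 RNA libraries and RPKM values, used for the 2 neocortex libraries, were deposited by the authors. The submitters' processing notes name STAR 2.4.0e, HTSeq 0.6.1 and the mm9 build, without tying tools to steps. Neither gene annotation nor strand handling is stated there. Symbols came from gene identifiers for 31707 rows (88.1%). TMM factors were computed from the deposited counts with edgeR 4.0.16 in R 4.3.3. From these factors, CPM and log2 ratios of the neocortex pair (prior count 2, at least 5 CPM in either library) were computed in Python 3.11.15. Intervals came from scipy 1.17.1. Sorted-cell libraries were fitted with edgeR's quasi-likelihood test (filterByExpr, limit 0.05), which was tested on simulated data. Whether replicates are separate animals is not given, so p-values measure the spread between these samples, which may be technical. Named genes are Fezf2, the 15 with the interval farthest from 0 on each side, all members of the 4 projection neuron lists, the extreme and defining members of the other lists and the neighbours of Fezf2. Members and all 34 lists were chosen with earlier results of these data known, and the 5 symbol groups, the Emx1 neighbours, the motifs and any other gene named were chosen after values were seen. Alternatives were another scaling, prior count 0.5, other level limits, DESeq2 1.42.0, a replicate block and each sorted library left out. Some genes are not reported here, and peak lists were not used here.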

Additional observations from a re-analysis of the deposited data

Results flagged for a closer look

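The highest of the 5 Fezf2 + GFP libraries stood apart from the others for 2 of the genes followed into the sorted cells. Cck stood at 77.3 CPM in Fezf2 + GFP replicate 2, against 28.4 to 37.4 CPM in the other 4, and Mdga1 stood at 172 CPM in Fezf2 + GFP replicate 1, against 92.4 to 111 CPM in the other 4. In each case the gap to the nearest library was more than Dixon's limit for 5 values allows. Chance alone flags about 1 in 20 groups of this size. Neither gene passed edgeR's test in sorted cells.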

How the results depend on the processing

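The counts of genes past a fold depended on the level limit. With limits of 1 and 20 CPM and with no limit, 312, 63 and 976 genes were at least 2-fold lower and 347, 50 and 1073 higher, against 148 and 113. At 1.5-fold they were 1243, 409 and 3127 lower and 1078, 237 and 2685 higher, against 755 and 534. The corticothalamic median was −0.37 under each of these, because a member more or fewer moves it across the gap in the list. Scaling by library total, DESeq2 factors or upper quartile kept directions, except medians within 0.01 of 0 (cell cycle, potassium channels). A prior count of 0.5 turned no sign but moved genes with near-zero counts, such as Gm13394 to 9.65 and Gm15772 to −9.17. Subtracting the length trend, chosen after seeing the data, turned the signs of the callosal (−0.03), cell cycle (0.09) and neuropeptide (−0.03) medians, Hspb3 (−0.15) and Fezf2 (−0.01). No paired analysis was possible for the neocortex because each group has 1 library. For sorted cells, a replicate block over replicates 1 to 3 gave medians of −0.044 and −0.087 for the genes 2-fold lower and higher, against 0.083 and 0.051, and called 10 genes. The numbers did not pair the samples (correlations of −0.05, −0.01 and −0.05). Leaving out 1 sorted library gave medians from 0.016 to 0.12 for the lower genes and from −0.003 to 0.10 for the higher. With no filter on low counts 117 genes were called and with DESeq2 6, against 2. With 1 library a group, the spread between animals is unknown, and depth limits genes near 5 CPM.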
